A study of Rattus norvegicus with 3 samples.

Results

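The 10 genes described here are the nuclear mediators and the feedback targets of the Wnt pathway: Lef1, Tcf7, Tcf7l1 and Tcf7l2, which code for the DNA-binding proteins through which β-catenin acts, and Axin2, Nkd1, Apcdd1, Znrf3, Sp5 and Sfrp1, which code for proteins that limit the pathway. The rule lists them by name, and all 10 were found among the 29772 genes listed for each library. The cells came from the cerebral cortex of wildtype rat embryos (Rattus norvegicus), were dissociated with papain, with no agent or allele named in the labels, and were profiled by droplet single-cell RNA sequencing of transcript 3′ ends. There was 1 library for each of the labels E14, E16 and E18 (embryonic day). How many embryos or litters went into each was not given in the sources used here. Because no label had a second library, no difference between libraries could be tested, and the intervals given, at the 95% level, cover counting error alone. The protocol text in the labels also describes culture and sorting of human cells, which does not match primary rat cortex.

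The libraries held 62740631, 80974234 and 73727823 unique molecular identifiers (UMIs, one per captured transcript) in label order. After filtering, 4286, 4977 and 5431 cells remained, with medians of 11193, 12276 and 10475 UMIs. Pairs of libraries shared 17, 13 and 12 cell barcodes, at most 0.254% of either library. Radial glia, which line the ventricle and act as the stem cells of the cortex, expressed the cortical regulator Emx1 in every library (80.9, 158 and 139.7 UMIs per 1000000, CPM). Stage genes in radial glia did not follow the order of the labels. Hmga2, known for high expression in early neural stem cells, stood at 12.2, 225 and 21.3 CPM in label order, and the astroglial enzyme gene Aldoc at 741, 17.2 and 242 CPM. Libraries are therefore named by label, and no difference between them is read as a change with age.

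In the canonical Wnt pathway, secreted Wnt proteins bind Frizzled and LRP receptors, which stops the degradation of β-catenin. β-Catenin then enters the nucleus and binds proteins of the TCF/LEF family on DNA. Among the genes switched on are inhibitors of the pathway itself, so that their transcripts are widely used as readouts of signalling. In the developing cortex the main embryonic source of Wnt ligands is the cortical hem, a strip of tissue at the medial edge of the cortical sheet, and the pathway is known for roles in radial glial proliferation and in forming the hippocampus. Brain endothelium is a second well-known site of Wnt signalling, where it maintains the blood-brain barrier.

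TCF/LEF proteins recognise a short DNA core, searched here as CTTTGAT and CTTTGAA on both strands in the promoter window from 250 bases before to 50 bases after each RefSeq gene start (GRCr8 assembly). Promoters of 8 members were matched by symbol. Either word occurred in 4 of these 8, against 8.73% of all 33469 rat promoters, and Axin2 was the member with 2 matches, as 0.571% of all promoters had. The windows are shown because Axin2, Sp5 and Nkd1 were feedback genes past 2-fold higher in cortical hem-like cells than in radial glia, while Lef1 was not. Tcf7, the other member with a match, was also past 2-fold higher there. Of the 4 members with 0 matches, Apcdd1 and Tcf7l2 were past 2-fold higher and Lef1 and Tcf7l1 were not. Each line gives the 250 bases before the start, 5′ to 3′ on the gene's strand, with the matched words in capitals. The windows are chr10:94398535-94398784 (plus strand) for Axin2, chr3:75682427-75682676 (plus) for Sp5, chr19:34722847-34723096 (minus) for Nkd1 and chr2:222340463-222340712 (plus) for Lef1.
Axin2: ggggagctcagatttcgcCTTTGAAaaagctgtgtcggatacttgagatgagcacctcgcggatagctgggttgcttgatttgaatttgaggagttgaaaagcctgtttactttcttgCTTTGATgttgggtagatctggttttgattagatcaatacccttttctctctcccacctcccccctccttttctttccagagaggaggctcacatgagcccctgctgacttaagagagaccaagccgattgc
Sp5: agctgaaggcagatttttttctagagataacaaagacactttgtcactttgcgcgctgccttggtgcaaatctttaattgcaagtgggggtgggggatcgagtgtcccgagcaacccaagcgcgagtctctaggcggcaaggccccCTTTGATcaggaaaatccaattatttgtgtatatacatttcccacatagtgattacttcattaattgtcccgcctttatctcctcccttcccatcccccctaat
Nkd1: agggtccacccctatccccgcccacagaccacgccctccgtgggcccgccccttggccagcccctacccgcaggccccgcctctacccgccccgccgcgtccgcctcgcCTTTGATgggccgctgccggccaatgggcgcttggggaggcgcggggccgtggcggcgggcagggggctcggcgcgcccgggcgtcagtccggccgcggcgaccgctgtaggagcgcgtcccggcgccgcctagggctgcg
Lef1: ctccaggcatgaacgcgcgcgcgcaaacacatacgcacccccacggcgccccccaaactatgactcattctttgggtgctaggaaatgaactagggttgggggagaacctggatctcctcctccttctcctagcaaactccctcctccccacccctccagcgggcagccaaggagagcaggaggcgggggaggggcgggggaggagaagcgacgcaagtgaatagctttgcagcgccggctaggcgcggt
The matches lay 232 and 132 bases before the start in Axin2, 104 before it in Sp5 and 141 before it in Nkd1. Tcf7 had the word CTTTGAT 4 bases before its start. A match is a run of letters and not a shown binding site, and its absence from this window in Lef1 says nothing of sites elsewhere.

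Most UMIs of 8 of the 10 members came from radial glia. Over the 3 libraries these cells held 87.4% of Tcf7l1, 79.5% of Sfrp1, 71.0% of Lef1, 66.7% of Znrf3, 62.6% of Tcf7l2, 57.9% of Axin2, 53.0% of Apcdd1 and 51.9% of Tcf7 UMIs. These shares over all libraries weigh most on the library labelled E16, in which radial glia were 60.6% of cells, against 9.36% at E14 and 32.7% at E18. At E14 radial glia held 73.0% of Tcf7l1 and 66.8% of Tcf7l2 UMIs, but 13.4% of Lef1, 17.5% of Apcdd1, 21.2% of Tcf7, 33.3% of Znrf3, 34.5% of Axin2 and 48.1% of Sfrp1 UMIs. Nkd1 and Sp5 were spread more widely over the 3 libraries, with 26.5% and 26.1% of UMIs in radial glia. Sp5, a zinc-finger repressor gene induced by Wnt signals, had further shares of 26.5% in choroid plexus cells, 23.5% in an unnamed cluster led by the signalling genes Fgf17 and Fgf8 and 13.8% in hem-like cells. Erythroid cells were taken as a measure of free RNA, and had 4.44 CPM (2.63 to 7.01) for Lef1 and 10.6 CPM (7.67 to 14.3) for Sfrp1 in the library labelled E16. Tcf7l2 stood at 16.8 CPM (13.0 to 21.2) there, and the other 7 members at or below 1.48 CPM. Levels are compared within a gene and not between genes. The heat map of members by class shows these patterns.

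**Figure D1:**
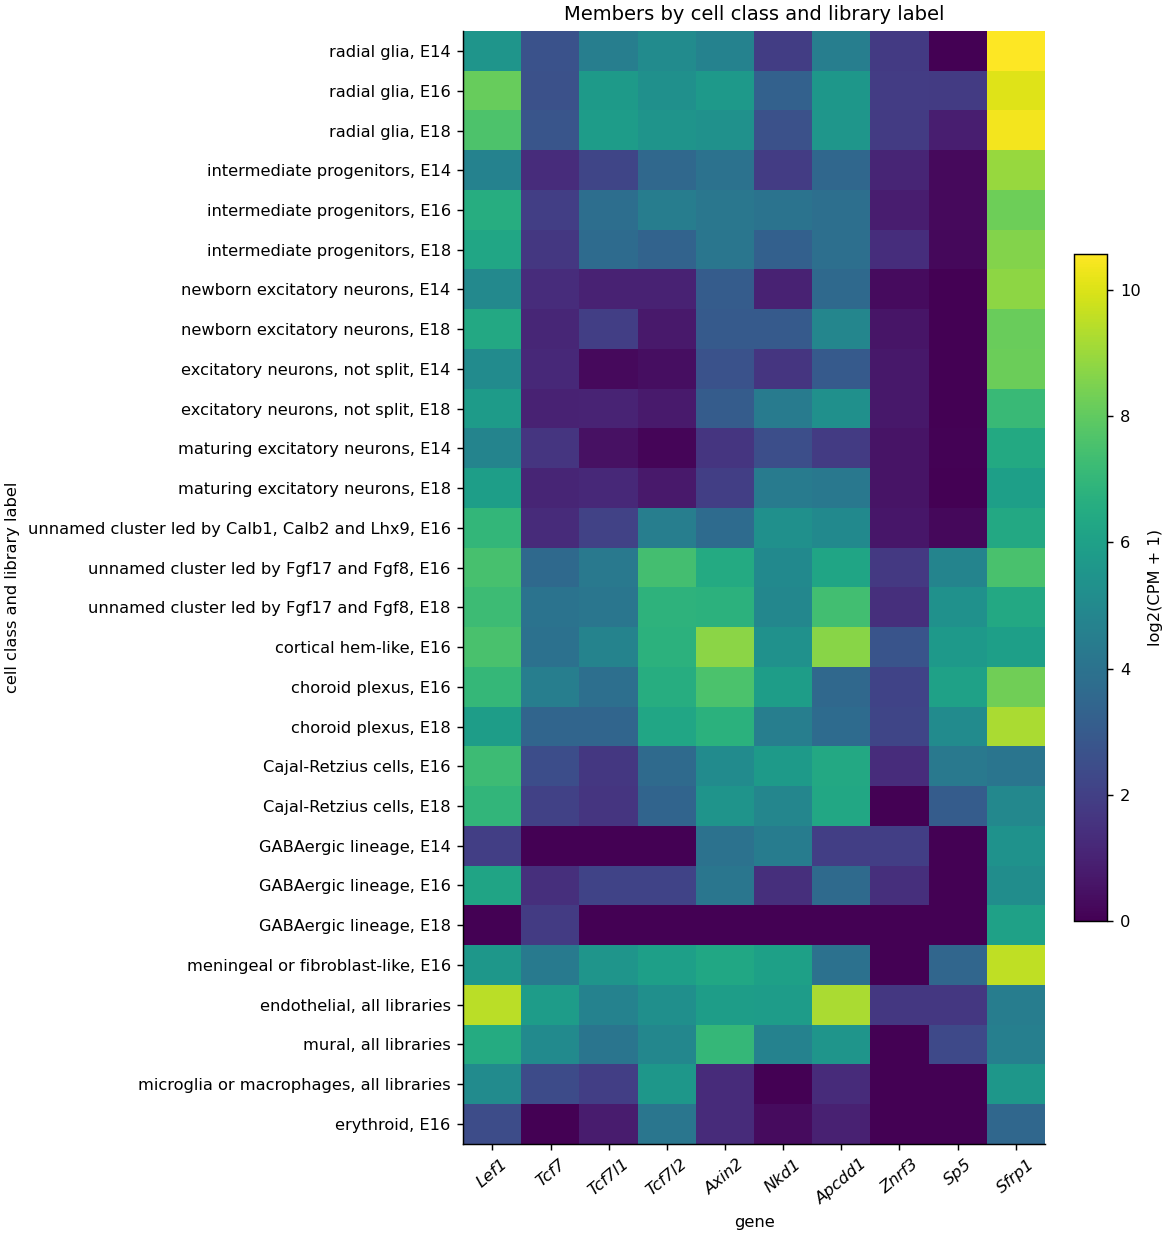
Level of each member (columns) in each cell class and library label (rows, at least 20 cells), as log2 of CPM plus 1. Read down each column, Sfrp1 is highest in radial glia, Axin2 in cortical hem-like cells, and Lef1 and Apcdd1 in endothelial cells.

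The first comparison was of radial glia between the library labels (401, 3015 and 1778 cells). Lef1, the TCF/LEF member best known as both mediator and target of the pathway, stood at 45.0 CPM (39.7 to 50.8) in the library labelled E14, at 272 CPM (268 to 277) in that labelled E16 and at 196 CPM (190.5 to 202) in that labelled E18. The library labelled E14 was thus far below both others, by 6.06-fold and 4.36-fold. Tcf7l1, a TCF known mainly as a repressor of Wnt targets in stem cells, stood at 22.1, 53.3 and 56.4 CPM in label order. Its level was therefore also lowest in the library labelled E14, and the intervals of the libraries labelled E16 (51.2 to 55.5) and E18 (53.5 to 59.4) overlapped. The remaining TCF genes differed less. Tcf7l2, a TCF of progenitors and of the thalamus, stood at 33.2, 38.2 and 43.9 CPM, and Tcf7, best known from T cells, at 5.38, 5.14 and 5.84 CPM. The 3 intervals of Tcf7 overlapped.

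Of the feedback genes, Axin2, which codes for a scaffold of the β-catenin destruction complex, stood at 24.8, 51.7 and 39.7 CPM in the radial glia of the 3 labels. Apcdd1, a membrane inhibitor of Wnt binding, stood at 22.1, 47.6 and 46.1 CPM. Nkd1, a Dishevelled-binding inhibitor, stood at 2.78, 8.64 and 5.16 CPM, from 16, 402 and 129 UMIs. All were lowest in the library labelled E14. Znrf3, a ubiquitin ligase that removes Frizzled receptors, had 2.43, 2.67 and 2.56 CPM, from 14, 124 and 64 UMIs, with overlapping intervals. Sp5 had 0 UMIs in radial glia labelled E14, which allows up to 0.521 CPM, and 2.56 and 0.840 CPM in those labelled E16 and E18. Sfrp1, a secreted protein that binds Wnts, had the opposite order, with 1515 CPM (1484 to 1547) at E14 and 1056 CPM (1047 to 1066) at E16. At E18 its level was 1316 CPM (1302 to 1330.0). The 3 intervals did not overlap, and the library labelled E14 was 1.43-fold above that labelled E16.

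**Figure D2:**
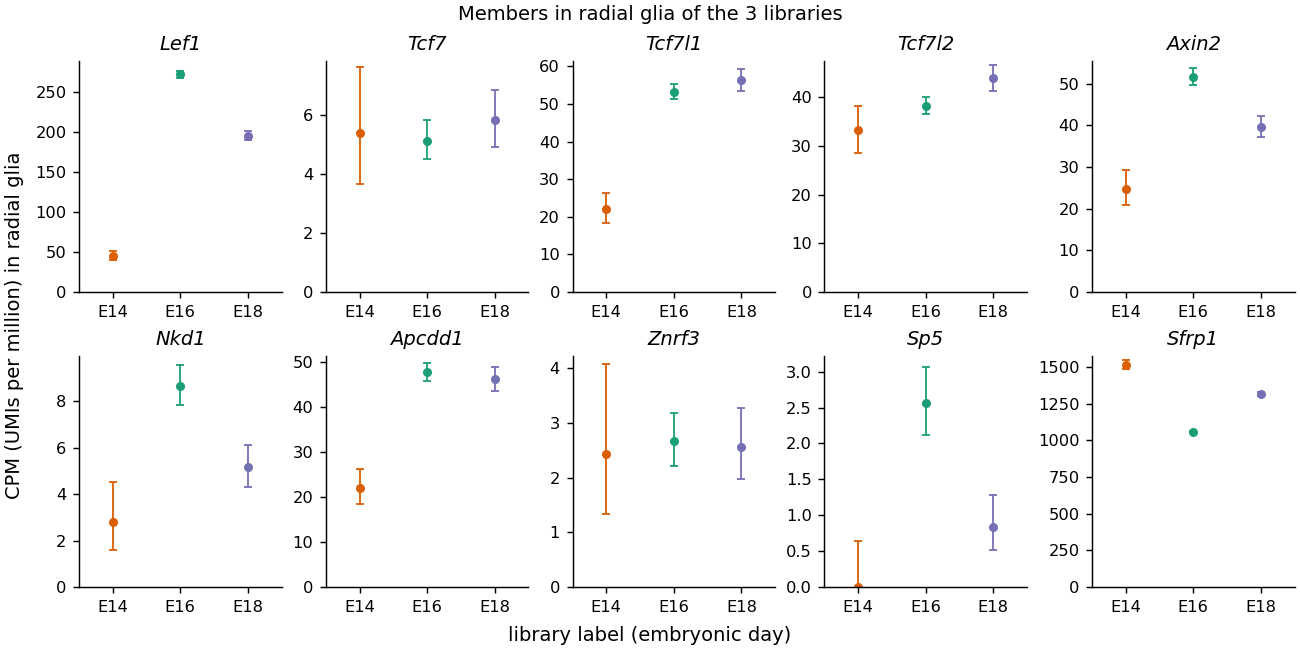
CPM of each member in radial glia (y axis, starting at 0 and scaled per gene) of the libraries labelled E14, E16 and E18 (x axis). Points are UMI sums over cells and bars are exact Poisson 95% intervals. Lef1 is lowest at E14 (45.0 CPM), while Sfrp1 is highest there (1515 CPM).

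A member was counted when the mean of both groups reached 5 CPM and the log2 ratio of CPM, with 1 CPM added, passed 2-fold. For radial glia labelled E16 over E14, 5 of 8 members that reached the minimum were past 2-fold higher (Lef1, Tcf7l1, Axin2, Nkd1 and Apcdd1) and 0 lower. Nkd1, at 2.78 CPM in the library labelled E14, reached the minimum only through that labelled E16, so the count is a description. Of all 9905 genes that reached it, 2.40% were past 2-fold higher and 7.45% lower. For E18 over E14, 3 of 7 were higher (Lef1, Tcf7l1 and Apcdd1) and 0 lower, against 0.989% of all genes higher and 3.34% lower. For E18 over E16, 0 of 8 passed, against 1.96% of all genes higher and 0.712% lower. The median log2 ratio of the members was 1.05, 0.66 and 0.02 in these comparisons, beside -0.12, -0.06 and 0.07 over all genes. The comparisons share libraries and are not independent of one another. Mitochondrial transcripts, a sign of cell quality, also differed between the libraries, with medians of 6.96%, 3.97% and 5.04% of UMIs per cell in label order. With at least 2000 genes and at most 5% mitochondrial UMIs required, 136 radial glia labelled E14 were left, and the log2 ratio of Lef1 for E16 over E14 was 2.81, beside 2.57 with all of them.

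Radial glia labelled E16 and those of the other labels fell into different clusters. Those labelled E16 lay almost all in clusters led by Ung and Hmga2, by histone genes and by Ube2c, and those labelled E14 and E18 in clusters led by Aldoc, Nusap1 and Tuba1c. Within the Aldoc cluster, Lef1 stood at 47.1 CPM (39.4 to 55.9) in 221 cells labelled E14 and at 192.9 CPM (184.5 to 201.5) in 820 labelled E18. In the Nusap1 cluster of dividing cells the values were 43.4 and 192.7 CPM, and in the Tuba1c cluster 43.1 and 203.0 CPM. The difference in Lef1 was thus about as large within each shared cluster as over all radial glia. Over these shared clusters together, Lef1 and Tcf7l1 stayed past 2-fold for E18 over E14 (log2 ratios of 2.08 and 1.33), and Apcdd1 was just short of it (0.98).

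The share of radial glia with a UMI followed the levels. With each cell thinned to 2000 UMIs, Lef1 was seen in 7.07% (4.75 to 10.1), 38.1% (36.4 to 39.9) and 27.5% (25.5 to 29.7) of 396, 2995 and 1761 cells in label order. In erythroid cells labelled E16 the share was 0.813%, 1 of 123 cells, whose median depth before thinning was 32368 UMIs against 13542 in the radial glia. Axin2 was seen in 3.03%, 9.25% and 6.81% and Tcf7l1 in 4.80%, 9.15% and 10.7% of radial glia. Sfrp1 was seen in 90.4%, 79.3% and 87.0% of radial glia. Sp5 was seen in 0 of 396 cells labelled E14, which allows up to 0.758%, in 0.467% of those labelled E16 and in 0 of 1761 labelled E18, which allows up to 0.170%. Without thinning, Lef1 was seen in 31.9%, 86.3% and 74.2% of radial glia in label order and in 6.50% of the erythroid cells, Axin2 in 24.4%, 40.9% and 32.3% of radial glia, Tcf7l1 in 25.4%, 49.2% and 48.3%, Sfrp1 in 99.0%, 96.8% and 98.4% and Sp5 in 0%, 3.09% and 0.844%. The thinned shares of Axin2, Tcf7l1 and Sfrp1 in those erythroid cells were 0.813%, 0% (up to 2.44% allowed) and 2.44%.

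The members were also compared over all cells of a library, and the libraries differed in their mix of classes. Lef1 had a log2 ratio of 2.53 for E16 over E14, beside 2.57 in radial glia. For E16 over E14, 7 of 7 members that reached the minimum were past 2-fold higher, against 11.3% of all genes higher and 13.5% lower. Tcf7l1 and Nkd1 were below 5 CPM at E14 and reached the minimum only through the other library, here and for E18 over E14, so these counts are descriptions. For E18 over E14, 6 of 7 were higher (the other, Sfrp1, had a log2 ratio of 0.93), against 6.71% of all genes higher and 4.48% lower. Under alternative settings the lowest log2 ratios of Tcf7l2, Axin2 and Nkd1 were 0.40, 0.58 and 0.85, in place of 1.91, 1.71 and 1.29. Lef1, Tcf7l1 and Apcdd1 stayed past 2-fold. For E18 over E16 0 of 7 passed, against 5.56% higher and 1.24% lower. For Tcf7l1 the level over all cells was 3.30, 38.6 and 25.6 CPM in label order, an 11.7-fold difference between E16 and E14 against 2.42-fold in radial glia alone. Sfrp1 had another order, at 344, 748 and 658 CPM over all cells. Its log2 ratio for E16 over E14 was 1.12, but -0.13 with at least 2000 genes and at most 5% mitochondrial UMIs required, and that for E18 over E14 was then -0.18. With the 3 classes of at least 20 cells in every library (radial glia, intermediate progenitors and GABAergic cells) given the same weights in every library, from their cell numbers over all libraries, Sfrp1 was again highest at E14 (1198, 826 and 1033 CPM), and Lef1 stood at 38.4, 218.9 and 157.9 CPM.

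A few endothelial cells carried much of the signal of some members in the library labelled E14. Its 8 endothelial cells, of 4286 in all, held 49.4% of Apcdd1 UMIs (358 of 725), 19.9% of Tcf7 UMIs and 19.7% of Lef1 UMIs. Without the endothelial cells of each library, Apcdd1 over all cells labelled E14 was 7.01 CPM in place of 13.7 CPM, and its log2 ratio for E16 over E14 was 2.61 in place of 1.76. For Lef1 the log2 ratio moved from 2.53 to 2.82.

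The next comparison followed the excitatory lineage, in which radial glia give rise to intermediate progenitors, marked by Eomes, and these to neurons. Within this lineage Tcf7l1 and Tcf7l2 were at or below 2.85 CPM in newborn neurons and far higher in radial glia. In the library labelled E18, Tcf7l2 stood at 43.9 CPM (41.3 to 46.5) in radial glia, 9.31 CPM (7.71 to 11.1) in intermediate progenitors and 0.671 CPM (0.183 to 1.72) in newborn excitatory neurons. At E14 the values were 33.2, 10.7 and 1.01 CPM. Tcf7l1 stood at 56.4, 12.1 and 2.85 CPM along these steps in the library labelled E18, and at 22.1, 3.58 and 1.01 CPM in that labelled E14, where the intervals of intermediate progenitors (2.15 to 5.59) and newborn neurons (0.275 to 2.58) overlapped. Axin2 and Sfrp1 had a shallower gradient. At E18, Axin2 stood at 39.7 CPM in radial glia, 16.8 in intermediate progenitors and 7.04 CPM in newborn neurons. Sfrp1 stood at 1316, 394 and 280.4 CPM along the same steps. The measure of free RNA came from the library labelled E16. That labelled E18 had only 9 erythroid cells, with 1 Sfrp1 UMI.

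Lef1 was the mediator that persisted in neurons. In the library labelled E14 it stood at 24.7 CPM (20.6 to 29.3) in intermediate progenitors, 30.0 CPM (24.9 to 35.9) in newborn, 33.6 CPM (30.1 to 37.5) in excitatory neurons that could not be split by age and 26.2 CPM (24.3 to 28.2) in maturing neurons. The radial glial level of that library was 1.50-fold the newborn one, a difference under 2-fold whose direction turned under 3 of 15 alternatives (log2 ratios of -0.34 to 0.66). In the library labelled E18 the same classes stood at 74.6, 81.3, 54.7 and 59.7 CPM. Within the maturing neurons labelled E14, Lef1 was highest in 75 cells of a cluster led by Crym, a gene of deep cortical layers, at 116.9 CPM (100.1 to 135.8). The other 2 clusters of that class stood at 19.9 CPM (17.6 to 22.3) and 22.3 CPM (19.6 to 25.4).

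Radial glia over newborn neurons gave 4 of 6 members past 2-fold higher and 0 lower in the library labelled E14 (Tcf7l1, Tcf7l2, Axin2 and Sfrp1), against 18.1% of all genes higher and 11.6% lower. It gave 5 of 7 higher and 0 lower in that labelled E18 (the same genes with Lef1), against 17.2% higher and 11.7% lower. In both libraries Tcf7l1 and Tcf7l2 were below 5 CPM in neurons and reached the minimum only through radial glia, so these counts are descriptions too. Against all excitatory neurons the counts were 5 of 6 higher and 0 lower at E14 (19.8% of all genes higher, 13.5% lower), where Axin2 and Apcdd1 also reached it only through radial glia, and 5 of 7 higher with 1 lower, Nkd1, at E18 (17.3% higher, 14% lower). Intermediate progenitors over radial glia gave 3 of 6, 5 of 7 and 6 of 7 members lower in label order and 0 higher, against 8.42%, 7.50% and 7.2% of all genes lower and 4.71%, 4.97% and 4.55% higher. At E14 Tcf7l1, one of the 3, reached the minimum only through radial glia. The median log2 ratio of all genes at 50 CPM or more was 0.13 for radial glia over newborn neurons and 0.16 over all excitatory neurons labelled E14, small beside the ratios of the members named. The library labelled E16 had 1 newborn neuron by these markers and gives no value for that step.

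**Figure D3:**
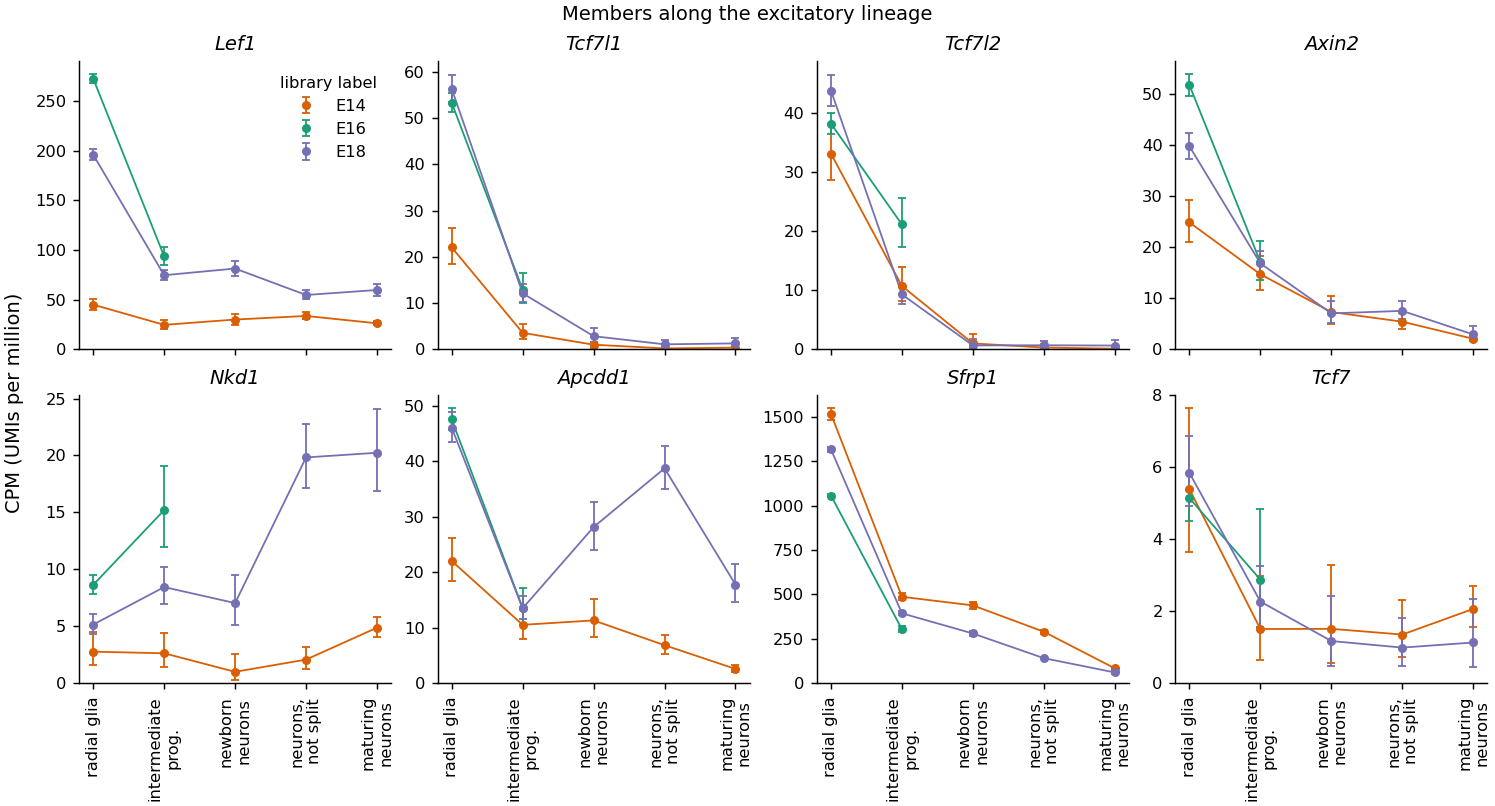
CPM of 8 members (y axes, starting at 0 and scaled per gene) along the excitatory lineage (x axis, classes of at least 20 cells) in the 3 libraries. Bars are exact Poisson 95% intervals, and lines join classes of a library. Tcf7l1, Tcf7l2 and Axin2 are low in every neuron class, while Nkd1 in the library labelled E18 is higher in unsplit (19.8 CPM) and maturing neurons (20.2 CPM) than in radial glia (5.16 CPM).

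Nkd1 had another order along the lineage. In the library labelled E18 it stood at 5.16 CPM (4.31 to 6.13) in radial glia, 8.45 CPM (6.93 to 10.2) in intermediate progenitors, 7.04 CPM (5.08 to 9.52) in newborn neurons, 19.8 CPM (17.2 to 22.8) in unsplit neurons and 20.2 CPM (16.8 to 24.1) in maturing neurons. The last 2 intervals lay above all the others. Apcdd1 in that library was lower in intermediate progenitors than in newborn and unsplit neurons, with 46.1 CPM (43.5 to 48.8) in radial glia, 13.5 CPM (11.6 to 15.7) in intermediate progenitors, 28.2 CPM (24.1 to 32.8) in newborn, 38.8 CPM (35.0 to 42.8) in unsplit and 17.8 CPM (14.6 to 21.5) in maturing neurons. Nkd1 in the newborn, unsplit and maturing neurons labelled E14 stood at 1.01, 2.08 and 4.88 CPM. The library labelled E16 had an unnamed cluster of 601 cells led by the neuronal genes Calb1, Calb2 and Lhx9, in which Nkd1 stood at 38.4 CPM (33.4 to 44.0) against 8.64 CPM in radial glia of that library. That cluster had Lef1 at 126 CPM (117 to 136) and Apcdd1 at 31.5 CPM (26.9 to 36.5). Against radial glia it had 1 of 7 members past 2-fold higher, Nkd1, and 4 lower (Lef1, Tcf7l1, Axin2 and Sfrp1), against 14% of all genes higher and 16.4% lower.

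Neurons differed between the libraries labelled E14 and E18 in 3 members. Over all excitatory neurons (3332 and 2230 cells), Lef1 stood at 28.4 CPM at E14 and 63.3 CPM at E18, Nkd1 at 3.83 and 16.5 CPM, and Apcdd1 at 4.48 and 30.1 CPM. These were 3 of 4 members that reached the minimum, against 2.05% of all genes higher and 2.18% lower, and the other, Sfrp1, had a log2 ratio of -0.11. Nkd1 and Apcdd1 reached the minimum only through the library labelled E18, so the count is a description. The classes hold different neurons: nearly all unsplit neurons labelled E14 lay in a cluster led by Selenom and Pdzrn3, and those labelled E18 in one led by Pcp4 and Cntn2. In the Crym-led cluster, present in both, Apcdd1 stood at 3.40 CPM (1.10 to 7.93) in 75 cells labelled E14 and at 18.4 CPM (15.1 to 22.1) in 401 labelled E18. Lef1 had the other order there, at 116.9 and 61.2 CPM, and Nkd1 stood at 10.9 CPM (6.22 to 17.7) and 20.5 CPM (17.1 to 24.5), under 2-fold apart. In newborn neurons, 2 of 4 members were past 2-fold for E18 over E14 (Lef1 and Apcdd1), against 1.56% of all genes higher and 2.53% lower. Here too the cells lay in different clusters, 522 of 529 labelled E14 in one led by Sstr2 and Cxcl12 and 733 of 746 labelled E18 in one led by Neurod1. In intermediate progenitors Lef1, Tcf7l1 and Nkd1 were higher for E16 over E14, 3 of 7 against 2.99% of all genes higher and 7.35% lower. The same 3 of 7 were higher for E18 over E14, against 0.863% higher and 2.16% lower. Tcf7l1 (3.58 CPM at E14) and Nkd1 (2.64 CPM) reached the minimum only through the other library. For E18 over E16 Tcf7l2 was lower, 1 of 7 against 2.21% of all genes higher and 1.34% lower. At E16, 1 cell held 34 of its 103 UMIs in this class and 10 cells held 63.1%, and the count of lower members was 0 under 7 of the alternative settings.

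The cortical hem was the next question, as the Wnt source beside the cortex. The library labelled E16 had 76 hem-like cells, named from markers that include the ligand genes Wnt3a and Wnt2b but no member. They expressed Wnt8b, which was not among those markers, at 847 CPM. Rspo3 and Lmx1a, which were among them, stood at 866 and 153 CPM. Axin2 stood at 418 CPM (383 to 456) in them against 51.7 CPM in radial glia of the same library, and Apcdd1 at 409 CPM (374 to 446) against 47.6 CPM. Sp5 stood at 51.4 CPM (39.6 to 65.6) against 2.56 CPM, and Nkd1 at 40.2 CPM (29.8 to 52.9) against 8.64 CPM. These feedback genes were thus between 4.65-fold and 20.1-fold above radial glia. Tcf7l2 (108 CPM) and Tcf7 (14.5 CPM) were also past 2-fold higher, while Tcf7l1 (25.7 CPM) was just past 2-fold lower and Lef1 stood at 183 against 272 CPM. Sfrp1 stood at 61.8 CPM (48.8 to 77.3) against 1056 CPM, 17.1-fold lower. In all, 6 of 9 members were higher and 2 lower, against 10.5% of all genes higher and 4.18% lower. Sp5 reached the minimum only through the hem-like cells, as it did only through the other class in each comparison with radial glia below that counts it. Tcf7l1, counted as lower than radial glia in the Calb1-led cluster and in Cajal-Retzius cells, reached it only through radial glia.

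Radial glia were also split by whether they had a UMI of Wnt8b, a ligand gene known for expression next to the hem. The feedback genes Axin2, Apcdd1, Nkd1 and Sfrp1 had the same direction in this split as in the hem-like cells, and Lef1 had the other. After thinning to 2000 UMIs, 168 of 2995 radial glia labelled E16 (5.61%) had such a UMI, 33 of 1761 labelled E18 (1.87%) and 0 of 396 labelled E14. At E16, Axin2 stood at 137 CPM (100.2 to 183) with and 44.7 CPM (39.4 to 50.6) without Wnt8b. Apcdd1 stood at 158 CPM (118 to 206) with and 39.8 CPM (34.8 to 45.3) without it, and Nkd1 at 38.7 CPM (20.6 to 66.2) and 7.25 CPM (5.20 to 9.84). Lef1 was higher with Wnt8b, at 369 CPM (307 to 440.0) with and 244 CPM (232 to 257) without. Sfrp1 was lower in the cells with Wnt8b, at 405 CPM (339.6 to 479) against 1097 CPM (1069.6 to 1124). None of these pairs of intervals overlapped. At this depth those of the other TCF genes and Sp5 did: Tcf7l2 stood at 23.8 CPM (10.3 to 46.9) with and 38.2 CPM (33.3 to 43.7) without, Tcf7 at 11.9 CPM (3.24 to 30.5) and 3.71 CPM (2.30 to 5.68), Tcf7l1 at 29.8 CPM (14.3 to 54.7) and 49.2 CPM (43.6 to 55.3) and Sp5 at 5.95 CPM (0.721 to 21.5) and 2.12 CPM (1.10 to 3.71). With cells thinned to 4000 UMIs in place of 2000, the intervals no longer overlapped for Tcf7 (12.0 CPM with and 4.24 CPM without), Tcf7l1 (24.9 and 53.4 CPM) and Sp5 (8.96 and 1.41 CPM). Tcf7l2 had the other order there, 42.8 CPM (31.0 to 57.7) with and 36.3 CPM (32.8 to 40.1) without. At 2000 UMIs hem markers differed with the split too: Rspo1 stood at 41.7 CPM (22.8 to 69.9) with and 1.95 CPM (0.971 to 3.48) without Wnt8b. Of 8 hem markers looked at, 6 were higher with it, 5 of them from 1 or 2 UMIs. Wnt2b was at 0 in both and Lmx1a at 0 with and 0.177 CPM without. At 4000 UMIs Msx1 had the other order, at 0 CPM with and 1.04 CPM without. Wnt3a stood there at 9.96 CPM (10 UMIs) with and 0.282 CPM without. The part of these markers in the result was not tested. In the 33 cells labelled E18, Lef1 stood at 455 CPM (307 to 649) with and 175 CPM (161 to 189) without Wnt8b, Apcdd1 at 182 CPM (93.9 to 318) and 32.7 CPM (26.9 to 39.3), and Sfrp1 at 561 CPM (395 to 773) and 1361 CPM (1322 to 1400.3). The intervals overlapped for Axin2, at 90.9 CPM (33.4 to 198) with and 35.0 CPM (29.1 to 41.8) without, and for Nkd1, at 30.3 CPM (3.67 to 109) and 5.79 CPM (3.53 to 8.94). They did not at 4000 UMIs (54 cells with Wnt8b), where Axin2 stood at 115.7 CPM (74.9 to 171) with and 32.3 CPM (28.1 to 36.9) without, and Nkd1 at 23.1 CPM (7.52 to 54.0) and 3.33 CPM (2.09 to 5.04).

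**Figure D4:**
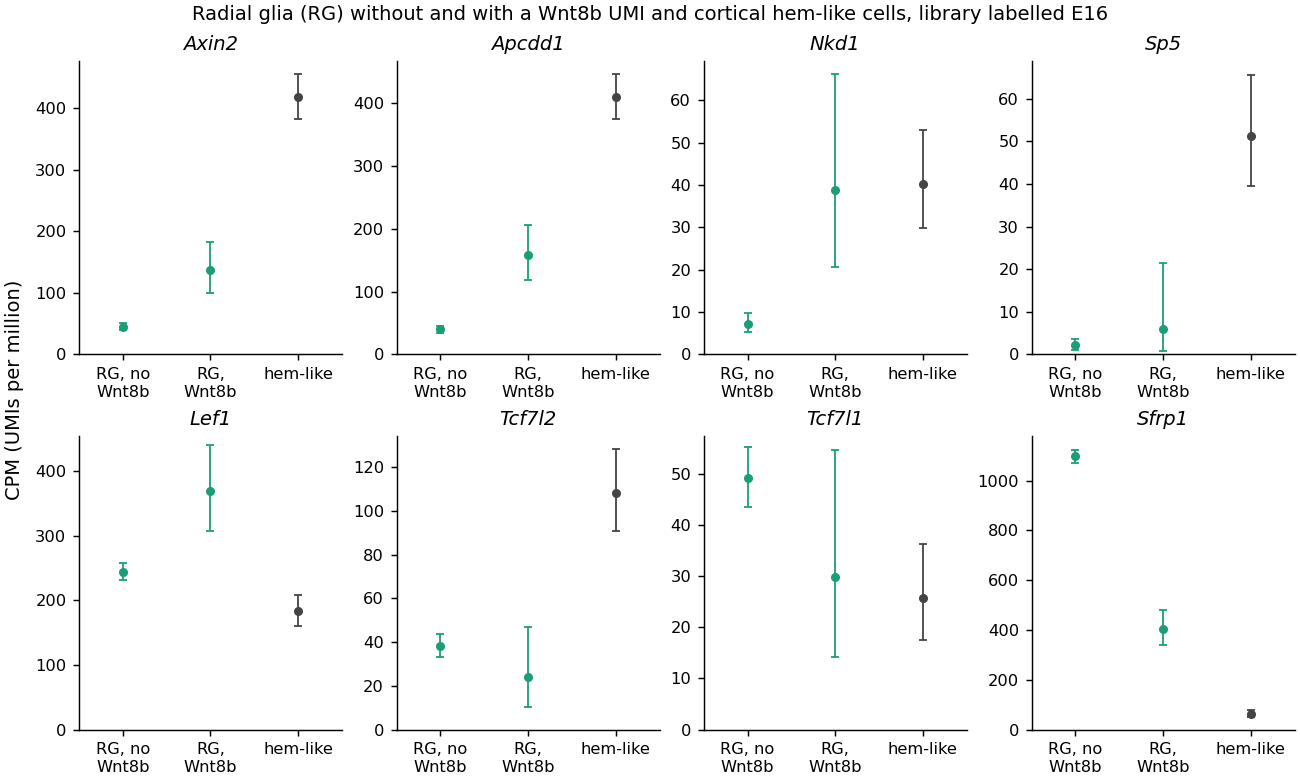
CPM (y axes, starting at 0 and scaled per gene) of 8 members in the library labelled E16: radial glia without and with a Wnt8b UMI, each cell thinned to 2000 UMIs, and 76 hem-like cells at full depth. Bars are exact Poisson 95% intervals. From left to right, Axin2 and Apcdd1 are higher in each group than in the one before, and Sfrp1 is lower.

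Wnt8b itself differed between the libraries in radial glia (0.174, 39.4 and 16.8 CPM in label order), and cells with it were left out to see what remained. At full depth 1, 502 and 103 radial glia had a Wnt8b UMI. Without them, members past 2-fold for E16 over E14 went from 5 to 2, Lef1 with a log2 ratio of 2.38 and Tcf7l1 with 1.35. Axin2 went from 1.03 to 0.55, Nkd1 from 1.35 to 0.65 and Apcdd1 from 1.07 to 0.19. For E18 over E14, Lef1 (1.94) and Tcf7l1 (1.37) stayed past 2-fold and Apcdd1 went from 1.03 to 0.61. The E16 over E14 ratio of Lef1 was thus slightly smaller without these cells, beside 2.57 with them, that of Tcf7l1 slightly larger, beside 1.24, and those of Axin2, Nkd1 and Apcdd1 smaller. Other members were past 2-fold apart when both the split and the levels were taken after thinning. Among cells without Wnt8b at 2000 UMIs, Axin2 stood at 15.2 CPM (7.83 to 26.5) at E14 against 44.7 CPM at E16 and Apcdd1 at 16.4 CPM (8.74 to 28.1) against 39.8 CPM, both past 2-fold apart. Tcf7l1, at 25.3 CPM (15.4 to 39.0) against 49.2 CPM, was under 2-fold apart. After thinning to 4000 UMIs, Axin2 (16.3 and 36.5 CPM) and Tcf7l1 (21.7 and 53.4 CPM) were past 2-fold apart and Apcdd1 (18.3 and 33.5 CPM) was not.

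Other medial and midline classes had members at different levels. In choroid plexus cells, the secretory epithelium next to the hem, the library labelled E16 (67 cells) had Axin2 at 190.2 CPM (169 to 214), Sp5 at 64.5 CPM (52.2 to 78.9) and Nkd1 at 57.8 CPM (46.1 to 71.4). Apcdd1, in contrast to the hem-like cells, stood at 10.9 CPM (6.21 to 17.7) there, 4.38-fold below radial glia. The library labelled E18 (37 cells) showed the same split, with Axin2 at 107 and Apcdd1 at 12.1 CPM. Choroid plexus over radial glia had 5 of 9 members higher and 4 lower at E16 (20.4% and 12.7% of all genes), and 3 of 9 higher and 4 lower at E18 (21.9% and 21.4%, with a median of -0.19 over genes at 50 CPM or more). Between these libraries, Lef1, Tcf7 and Nkd1 were past 2-fold lower in choroid plexus cells labelled E18 than in those labelled E16, 3 of 9 with 0 higher, against 7.12% of all genes lower and 6.84% higher (median -0.14 at 50 CPM or more). Without the deepest cell of each library, Tcf7 stood at 22.5 CPM at E16 and 11.4 CPM at E18, under 2-fold apart. The labels also held different mixes: a choroid plexus cluster led by Ttr and Clu had 10 cells labelled E18 and 0 labelled E16. Its part was not tested. Hem-like over choroid plexus cells labelled E16 had Axin2 and Apcdd1 higher and Sfrp1 lower of 9, against 12.1% of all genes higher and 13.1% lower.

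The unnamed cluster led by Fgf17 and Fgf8 (321 cells labelled E16 and 43 labelled E18) had the highest Tcf7l2 of the classes with at least 20 cells, at 169 CPM (156 to 182) and 112 CPM (87.0 to 143). Axin2 stood at 88.2 and 109 CPM, Sp5 at 26.4 and 40.2 CPM and Sfrp1 at 185 and 82.1 CPM. Against radial glia, 4 of 9 members were higher and 2 lower at E16 (5.71% and 2.35% of all genes), and 6 of 9 higher and 2 lower at E18 (12.0% and 8.88%). For E18 over E16 in this cluster Apcdd1 was higher and Sfrp1 lower of 9, against 8.14% of all genes higher and 4.96% lower. Few cells carried these genes at E18: 1 cell held 22 of 98 Apcdd1 UMIs and 10 cells held 75.5%. For Sfrp1 these were 19 of 49 UMIs and 93.9%. Cajal-Retzius cells, early neurons of the marginal zone that arise in part at the hem, kept Lef1 at 153 CPM (132 to 175) and 124 CPM (103 to 149) and Apcdd1 at 82.5 CPM (67.6 to 99.7) and 79.5 CPM (62.5 to 99.6). Nkd1 stood at 52.4 CPM (40.7 to 66.4) and 27.6 CPM (18.0 to 40.4), and Sfrp1 at only 16.2 and 29.7 CPM. Nkd1 and Sp5 were past 2-fold above radial glia at E16 and Nkd1 at E18. With Tcf7l1, Tcf7l2 and Sfrp1 lower, this made 2 of 8 higher and 3 lower at E16 (17.4% and 15.3% of all genes) and 1 of 7 higher and 3 lower at E18 (18.4% and 15.7%). For E18 over E16 in Cajal-Retzius cells, 1 of 7 was lower, Sp5, against 3.94% of all genes lower and 6.49% higher. Sp5 rested there on 24 UMIs in 12 cells at E16 and 7 UMIs in 2 cells at E18, 6 of these in 1 cell.

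Endothelial cells were the last class compared, 8, 18 and 6 cells in label order. Lef1 reached 810.2 CPM (731 to 896) at E14, 529.6 CPM (449 to 621) at E16 and 673 CPM (539 to 829.6) at E18, above radial glia of the same library in each. Apcdd1 reached 761 CPM (684 to 844) at E14, 284 CPM (226 to 353) at E16 and 665 CPM (532 to 821) at E18. Pooled over libraries, Tcf7 stood at 56.5 CPM (41.9 to 74.5) and Sfrp1 at 21.5 CPM (12.9 to 33.5). Of 8 members, 4 were past 2-fold above radial glia (Lef1, Tcf7, Nkd1 and Apcdd1) and 2 below (Tcf7l1 and Sfrp1), against 21.0% of all genes higher and 21.3% lower, whose median log2 ratio at 50 CPM or more was -0.24. This ratio pools libraries in unlike mixes for the 2 classes. Within libraries, Lef1 at E16 was under 2-fold above radial glia, and Tcf7l1 was past 2-fold lower at E16 (17.5 CPM (5.69 to 40.9)) but not at E14, where it stood at 23.4 CPM (11.7 to 41.9), or at E18, with 46.4 CPM (17.0 to 101). Single cells weighed heavily: 1 cell held 33.6%, 40.4% and 80.5% of the endothelial Lef1 UMIs in label order. Without the deepest cell of each library, pooled Lef1 was 701.8 CPM in place of 699.6 CPM and Apcdd1 526.4 CPM in place of 593 CPM. Nkd1 was 25.1 CPM in place of 56.5 CPM, and Apcdd1 was 136.1 CPM at E16 and 186.9 CPM at E18.

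Of the other classes, mural cells (33 over all libraries) had Axin2 at 132 CPM (102 to 168). Meningeal or fibroblast-like cells labelled E16 (93 cells) had Sfrp1 at 751 CPM (704 to 799.9), Tcf7l1 at 45.0 CPM (34.1 to 58.3) and Nkd1 at 64.0 CPM (50.8 to 79.5). Microglia or macrophages (30 cells) had 0 UMIs of Nkd1, Znrf3 and Sp5. In the GABAergic lineage Lef1 was at 71.5 CPM (51.7 to 96.3) in 76 cells labelled E16, but at 1 UMI in 56 cells labelled E14 and 0 in 69 labelled E18, which allows up to 7.87 CPM.

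The other genes of the pathway, 99 measured of 100 listed by role, were counted in radial glia in the same way. For E16 over E14, 6 of 49 that reached the minimum were past 2-fold higher and 6 lower, beside 2.40% of all genes higher and 7.45% lower. For E18 over E14 the counts were 3 and 1 of 48, beside 0.989% and 3.34%, and for E18 over E16 1 and 3 of 47, beside 1.96% and 0.712%. Among ligands, Wnt7a, expressed by radial glia, stood at 37.3, 13.2 and 27.2 CPM in label order and Wnt7b at 6.77, 6.21 and 2.16 CPM. Among receptors, Ror2 stood at 2.61, 25.0 and 13.6 CPM and the Frizzled gene Fzd8 at 126, 74.6 and 83.3 CPM. Of 14 cytoplasmic transducers that reached the minimum, 1 was past 2-fold lower for E16 over E14 (Frat2, with a log2 ratio of -1.10) and 0 in the other comparisons. Ctnnb1, which codes for β-catenin, stood at 333, 301 and 352 CPM, the kinase gene Gsk3b at 186, 135 and 189 CPM and Csnk1a1 at 392, 394 and 413 CPM. Of the nuclear partners, the corepressor gene Tle4 stood at 36.0, 87.5 and 58.8 CPM. Of the secreted inhibitors, 2 of 3 were past 2-fold lower for E16 over E14, Draxin at 48.8, 20.9 and 59.7 CPM in label order and Dkk3 at 9.73, 3.42 and 5.72 CPM, while Sfrp2 stood at 58.7, 41.8 and 50.9 CPM. Dact1, a Dishevelled-binding antagonist gene, was also past 2-fold lower in that comparison, at 8.86, 3.61 and 4.40 CPM. Of the targets, the cell cycle genes Ccnd1 and Ccnd2 stood at 58.9, 253 and 40.3 and 156, 364 and 514 CPM, and Myc at 16.5, 4.58 and 7.36 CPM. Of the other genes that the naming rule picked, Wls, Porcn, Ryk, Fzd1, Tle5, Ctnnbip1 and Mycn were under 2-fold apart in each comparison, Fzd6 was past 2-fold lower for E18 over E16 (a log2 ratio of -1.12) and Rspo3 was below the minimum. Some of the genes counted reached the minimum through 1 library only, so these counts are descriptions. Among the genes named, they were Wnt8b and Ror2 for E16 over E14 and E18 over E14, Dkk3, Dact1 and Myc for E16 over E14 and Fzd6 for E18 over E16. In hem-like cells over radial glia labelled E16, 25 of 62 listed genes were higher and 7 lower, beside 10.5% of all genes higher and 4.18% lower. Ligand genes made up 10 of the higher ones, of 12 that reached the minimum, but 5 of the 10 (Wnt3a, Wnt2b, Rspo1, Rspo2 and Rspo3) were among the markers used to name the hem-like cells. These 5 were below 5 CPM in radial glia thinned to 2000 UMIs without a Wnt8b UMI, which were 94.4% of them, and reached the minimum through the hem-like cells. The other 5 were Wnt4, Wnt5a, Wnt7b, Wnt8b and Wnt9a.

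Across 23 combinations of class and library with at least 50 cells, which share libraries and depth, the members fell into partly separate patterns of log2 CPM. Lef1 was most like Apcdd1 among the members (Pearson r = 0.848), Axin2 like Sp5 (0.818), and Tcf7l1 like Tcf7l2 (0.842). Tcf7 was most like Sp5 (0.823). Sfrp1 was close to 0 with Nkd1 (-0.053) and Sp5 (-0.064). Among 12184 genes, those closest to Lef1 were LOC103691708 (0.914), Itpripl1 (0.892) and Ptpru (0.881). Those closest to Axin2 were Cdyl (0.937) and Serpinh1 (0.904), to Sp5 Ndufb11b (0.962), Tmem176b (0.958) and Bmp7 (0.942), and to Tcf7l1 Plp2 (0.964), Peg12 (0.956) and Gas1 (0.953). The closest were Npepl1 (0.937) for Sfrp1, LOC120100061 (0.958) for Tcf7l2, Snx9 (0.939) for Tcf7, Cachd1 (0.872) for Apcdd1 and Tes (0.847) for Nkd1. Znrf3 was below the level of 10 CPM set for this description.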

How the data were processed

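Counts of UMIs per gene and cell barcode were used as deposited by the authors, who made them with Cell Ranger 6.0.1 against mRatBN7.2, per the submitters' processing notes. They are not normalized. Cells with at least 1000 genes and at most 10% mitochondrial UMIs (13 genes) were kept, and the highest Scrublet doublet scores were removed at 0.8% per 1000 cells (158, 216 and 259 cells).

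Cells of all libraries were clustered together in scanpy 1.11.5 (2000 variable genes without the members, 30 principal components, 15 neighbours, Leiden resolution 1, leidenalg 0.10.2), with no integration, and small non-neuronal clusters once more (15 components, 10 neighbours), a step chosen after seeing the data. Of 35 clusters, 33 were named from 125 measured markers of 15 classes and 2 were left unnamed. The names were rebuilt here and may differ from the study's.

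UMIs were summed per class and library, scaled to CPM and given exact Poisson 95% intervals (Clopper-Pearson for shares of cells). Where a count was 0, the level that 3 counts would give is the limit. Ratios are log2 with 1 CPM added to both groups, which understates differences of low genes. With 1 library per label there was no test. The ratio and count steps were tested on simulated data.

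Every member was named. Pathway genes were named if among the 3 highest of their role or the 3 largest or smallest ratios in radial glia, at 5 CPM or more. For likeness, the 3 genes with the highest Pearson correlation were taken. The members and lists were chosen with earlier results of these data known. Alternatives in filters, doublets, clustering, scaling and minimum level are given in the closing section.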

Additional observations from a re-analysis of the deposited data

How the results depend on the processing

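Of 53 member ratios past 2-fold in the comparisons planned at the outset, 52 kept their sign and 36 stayed past 2-fold under every alternative run. Comparisons added later were not run under the alternatives: all those of choroid plexus, Cajal-Retzius cells, the unnamed clusters and all excitatory neurons, and intermediate progenitors over radial glia. The exception in sign was Sfrp1 over all cells for E16 over E14, with a log2 ratio of -0.13 in place of 1.12 when at least 2000 genes and at most 5% mitochondrial UMIs were required. Of single values under an alternative, 137 CPM values moved beyond their counting interval and 563 did not, 252 log2 ratios moved and 1163 did not, and 51 shares of cells moved, with other depths, and 9 did not. Counts of members past 2-fold moved by over 1.5 times in 30 of 400 cases, and except for the higher minimum the cause was not tested.

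A minimum of 20 CPM, which leaves fewer members to count, gave 2 in place of 6 higher over all cells (E18 over E14), 1 in place of 3 in intermediate progenitors (E16 over E14 and E18 over E14), 1 in place of 2 in newborn neurons and 1 in place of 4 for radial glia over newborn neurons labelled E14. With 5 CPM added, radial glia (E16 over E14) had 2 in place of 5 higher and intermediate progenitors (E18 over E14) 1 in place of 3. Doublet removal at 2 times the rate gave 3 in place of 5 in radial glia (E16 over E14), and leaving out cells with a Wnt8b UMI, chosen after seeing the data, gave 2. Newborn neurons had 1 in place of 2 higher with each cell weighted equally.

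Members lower over all cells (E18 over E16) numbered 2 in place of 0 with 2 times the doublet rate, 2 with each cell weighted equally, 1 with no minimum and 3 with CPM computed without mitochondrial, ribosomal protein and haemoglobin genes. The count of members lower in intermediate progenitors (E18 over E16), 1 (Tcf7l2), was 0 under 7 alternatives: the stricter cell filter, 2 times the doublet rate, resolution 2, each library clustered on its own, 5 CPM added, a minimum of 20 CPM and equal weights. Newborn neurons had 1 lower in place of 0 without doublet removal, and radial glia over newborn neurons labelled E18 had 1 in place of 0 with the stricter filter and with libraries clustered on their own. Hem-like cells had 1 lower in place of 2 without doublet removal, at resolution 0.5 and with 5 CPM added. Endothelial cells had 1 in place of 2 with 5 CPM added, with ratios centred on the median gene and with equal weights.

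The stricter cell filter left no newborn neurons labelled E14 and no endothelial class, and 2 times the doublet rate left no hem-like or endothelial class, so these gave no value. No paired analysis was possible because each label had 1 library.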

Other observations

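Tcf7l2 in the unnamed cluster of the library labelled E16 led by Calb1, Calb2 and Lhx9 came from few cells: 16 of 601 held all of its 121 UMIs, and 10 of them held 95%. Shox2, a transcription factor gene known from the thalamus, stood at 466.5 CPM in those 16 cells (72 UMIs in 9 cells) and at 0.376 CPM in the other 585 (2 UMIs in 2 cells). A list of diencephalic and midbrain genes that includes Shox2 summed to 498.9 CPM against 3.39 CPM. Nearly all of this was Shox2 itself, with 72 of the list's 77 UMIs in the 16 cells. Barhl1, Pou4f1 and Irx1 had 1, 3 and 1 UMIs there, and the other genes of the list had 0. Calb2, which helped to define the cluster, stood at 6.48 CPM in the 16 cells and at 178.1 CPM in the others, and Lhx9 at 330.5 and 168.1 CPM. The cortical neuron gene Tbr1 stood at 272.1 and 532.5 CPM. These cells were picked after their Tcf7l2 UMIs had been seen, and no test applies.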
